A study of Mus musculus with 6 samples.

Results

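Collagen genes were taken as all probes whose platform gene symbol has the form Col, a number, a, and a number. They were 91 probes of 41 genes, out of 45281 probes and 19057 named genes on the array. Gene expression had been measured on Illumina MouseWG-6 v2.0 bead arrays in satellite cells, the stem cells of skeletal muscle, sorted from pharyngeal muscle (3 pools) or from the gastrocnemius and quadriceps of the limb (3 pools). All animals were male C57BL/6 mice aged 8 to 10 weeks, with no treatment or transgene named in the labels. Cells of 10 to 30 mice were combined per experiment into pools of 150000 to 200000 cells, and which markers the sort used is not stated in the labels. The satellite cell marker Pax7 was above background on all 6 arrays and 4.81-fold lower in the pharyngeal pools (limma, adjusted p = 0.0144). Among 12 genes that mark satellite cells, 7 fell and 0 rose in pharyngeal pools, against 1.61% of all genes tested lower and 1.71% higher. Every pharyngeal value lay below every limb value for all 12, against 15.0% of all genes tested. Among 10 epithelial markers past the filter 6 rose. In pools of cells, fewer cells of a type and less RNA per cell cannot be told apart.

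Collagens are secreted trimers of alpha chains whose repeats of glycine and further residues wind into a helix. Fibrillar collagens (types I, II, III, V and XI) build the cables of tendon, cartilage and interstitial matrix. Type IV forms the sheet of basement membranes, which in muscle lies over the satellite cell and its fibre. FACIT collagens have interrupted helices and decorate fibrils and tissue junctions, while other types form beaded filaments, hexagonal networks, anchoring fibrils or membrane-bound forms.

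The main collagens of the interstitial matrix and of the basement membrane did not pass the test for a difference between pharyngeal and limb pools. The collagens that differed were Col22a1 and Col19a1, a pair of FACIT genes whose brightest probe was above background on every limb array and no pharyngeal array, and Col15a1, a collagen of the basement membrane zone of muscle, 2.21-fold lower in pharyngeal pools. The hemidesmosome collagen Col17a1 read 4.61-fold higher in the pharyngeal pools and missed the threshold (limma, adjusted p = 0.0520). A probe counted as above background with a detection p under 0.05, and 33 of the 41 genes had a probe above background on at least 3 of the 6 arrays and were tested. By limma with Benjamini-Hochberg adjustment over 11262 genes, 3 of 33 collagen genes fell at an adjusted p under 0.05 and 0 rose, against 1.61% of all genes lower, 1.71% higher and 3.32% called in either direction. Of these 3, Col22a1 and Col19a1 met the filter through the limb arrays alone, where they read high, so the count describes and does not test the family. With detection required on all 6 arrays, Col15a1 was called lower and Col17a1 higher. At an unadjusted p under 0.05 there were 4 collagen genes in each direction, or 24.2% of the 33 together, against 20.3% of all genes. The median difference (pharyngeal minus limb, log2 intensity) was -0.05 over the collagen genes and -0.06 over all genes tested.

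Promoter windows are shown for Col15a1 and Col19a1, which passed, and for Col17a1, which missed the threshold. That of the basement membrane chain Col4a1, which did not pass, is shown beside them. Each window runs from 250 bases before to 50 after the RefSeq start in GRCm38.p6, 5′ to 3′ on the gene's strand. Of the 41 genes 33 matched a window, and Col22a1 was not among them. Capitals in the first windows mark the E-box letters CANNTG, the core read by basic helix-loop-helix factors such as the myogenic regulators. In the last window capitals mark the 78 bases (chr8:11312777-11312854) shared with the window of Col4a2, which is read from the opposite strand. The windows lie at chr4:47207762-47208061 (plus strand) for Col15a1, chr19:47691993-47692292 (minus) for Col17a1, chr1:24587388-24587687 (minus) for Col19a1 and chr8:11312777-11313076 (minus) for Col4a1.
Col15a1: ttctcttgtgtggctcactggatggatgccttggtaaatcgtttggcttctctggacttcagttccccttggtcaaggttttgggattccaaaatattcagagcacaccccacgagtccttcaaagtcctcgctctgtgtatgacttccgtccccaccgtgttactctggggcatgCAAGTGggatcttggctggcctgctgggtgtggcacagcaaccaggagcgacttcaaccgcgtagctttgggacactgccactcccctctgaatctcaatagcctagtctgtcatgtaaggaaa
Col17a1: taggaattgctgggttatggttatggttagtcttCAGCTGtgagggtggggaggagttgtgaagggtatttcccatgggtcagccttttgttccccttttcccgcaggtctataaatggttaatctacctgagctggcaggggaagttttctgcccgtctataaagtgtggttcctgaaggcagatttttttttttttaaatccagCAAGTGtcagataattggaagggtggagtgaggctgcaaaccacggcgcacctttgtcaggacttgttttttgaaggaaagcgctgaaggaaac
Col19a1: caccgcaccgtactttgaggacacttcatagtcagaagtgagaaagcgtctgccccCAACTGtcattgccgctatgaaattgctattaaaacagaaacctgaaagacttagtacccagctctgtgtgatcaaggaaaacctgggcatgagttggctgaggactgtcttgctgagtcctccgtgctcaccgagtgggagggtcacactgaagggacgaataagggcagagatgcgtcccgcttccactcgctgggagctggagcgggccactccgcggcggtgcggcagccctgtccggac
Col4a1: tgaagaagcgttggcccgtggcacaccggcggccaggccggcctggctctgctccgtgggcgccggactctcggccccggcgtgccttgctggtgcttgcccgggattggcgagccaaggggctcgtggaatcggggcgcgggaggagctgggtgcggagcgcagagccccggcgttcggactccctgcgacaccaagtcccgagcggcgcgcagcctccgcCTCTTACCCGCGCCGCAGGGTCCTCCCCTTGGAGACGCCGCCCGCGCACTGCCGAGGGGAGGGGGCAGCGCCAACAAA

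Searched on both strands, CANNTG occurred 1 time in the Col15a1 window, 2 times for Col17a1, 1 time for Col19a1 and 0 times for Col4a1. It was present in 72.3% of all 32851 windows of this length and in 20 of 38 collagen windows. The form CAGCTG, contained in CANNTG, was present in the Col17a1 window alone of these 4, and in 16.3% of all windows. TATAAA occurred 2 times for Col17a1 and 0 times for the other 3, and was present in 13.6% of all windows. These are letter matches and say nothing on binding.

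Among the collagen genes tested, the largest decreases were in FACIT members. Col22a1, a collagen of the junction between muscle and tendon, had log2 intensities of 4.23, 4.30 and 4.47 in pharyngeal pools 1 to 3 and of 7.02, 6.29 and 6.24 in limb pools 1 to 3. Its unnormalized intensity was 91.1 to 98.8 on the pharyngeal arrays and 146 to 182 on the limb arrays. The groups lay far apart, with every pharyngeal value at background. The difference was -2.19 (SE 0.26, adjusted p = 0.00737, limma). As this probe was not above background in the pharyngeal pools, with the offset of 16 it read at least 3.75-fold higher in the limb pools. A bound of this kind sets the limb mean against the higher of the pharyngeal value and the dimmest detected probe on each array. It holds for that offset only. A weaker Col22a1 probe missed the filter and was above background on 1 pharyngeal and 1 limb array, so that the gene as a whole cannot be called undetected in pharyngeal cells. The size depended on the background step: it was -1.22 with an offset of 50 in place of 16 and -0.88 with no background correction, both still past the threshold.

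Col19a1, expressed in differentiating muscle of the mouse embryo, read 4.44, 4.39 and 4.43 in the pharyngeal pools and 5.58, 5.88 and 6.15 in the limb pools. Its only probe was again above background on all 3 limb arrays and on 0 pharyngeal arrays. It differed by -1.45 (SE 0.21, adjusted p = 0.0144, limma) and its level in limb pools was higher by at least 2.39-fold. With an offset of 50 the difference was -0.74, and with no background correction it was -0.50. Among all genes tested, the brightest probe of 107, or 0.950%, showed this pattern of detection. Without any 1 limb pool these probes no longer met the filter. When they were retained, Col22a1 passed in each of these 3 fits, and Col19a1 passed without limb pool 1 but not without limb pool 2 (adjusted p = 0.0869) or 3 (adjusted p = 0.0846). With replicate number as a block, Col22a1 passed (adjusted p = 0.0404, limma) and Col19a1 did not (0.0605). On the same arrays 3 of 6 tested tenocyte markers fell in pharyngeal pools and 1, Tnc, rose, against 1.61% of all genes lower and 1.71% higher. The mean log2 level of these 6 markers was 6.29 to 6.66 in pharyngeal and 7.76 to 8.42 in limb pools. The part of tendon cells in the Col22a1 and Col19a1 values was not tested. The tendon transcription factor Scx differed by 0.13 (SE 0.33, adjusted p = 0.872), with overlapping groups.

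The other FACIT genes that were tested did not pass. Col16a1, which binds fibrils in skin and cartilage, read 7.31 to 8.00 in pharyngeal and 7.43 to 8.39 in limb pools, and its groups overlapped (difference -0.05, 95% confidence interval -0.80 to 0.71). Col14a1, a fibril-surface collagen of tendon and dermis, differed by -0.01, with a wide interval of -1.01 to 0.98. The cartilage collagens Col9a2 (-0.05) and Col9a3 (0.56, adjusted p = 0.419) were each above background on some arrays only. Col9a3 was detected on all 3 pharyngeal arrays and 1 limb array, and its pharyngeal values of 5.92, 4.70 and 4.73 lay only just above the highest limb value of 4.67, apart from pool 1.

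**Figure D1:**
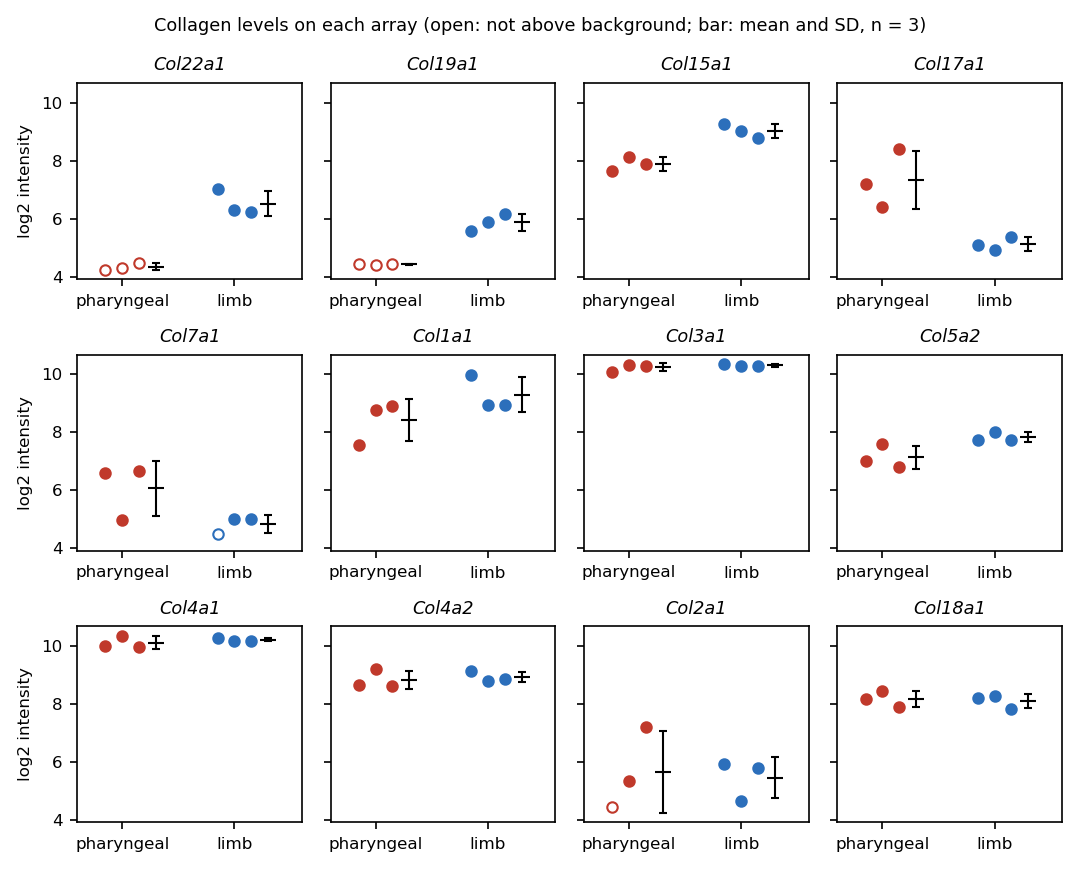
Log2 normalized intensity of 12 collagen genes on each array (y axis), with pharyngeal pools in red and limb pools in blue; open points were not above background, and the black bar is the mean with its SD (n = 3). All 3 pharyngeal points of Col22a1 and Col19a1 are open and lie below 4.50, while Col3a1 and Col4a1 sit between 9.94 and 10.36 in every pool.

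Of the multiplexins, collagens of the basement membrane zone whose ends release anti-angiogenic fragments, 1 fell and 1 did not pass. Col15a1, whose loss causes a skeletal myopathy in mice, read 7.64, 8.13 and 7.88 in pharyngeal pools and 9.27, 9.03 and 8.78 in limb pools. Every pharyngeal value lay below every limb value, on a probe above background on all 6 arrays. The difference was -1.14 (SE 0.23, adjusted p = 0.0421, limma), with an interval of -1.67 to -0.61. This call stood close to the threshold. It passed without pharyngeal pool 2 but not without pharyngeal pool 1 (adjusted p = 0.0747) or 3 (0.0743) or without limb pool 1 (0.155), 2 (0.186) or 3 (0.126). Nor did it pass with median scaling (0.0747), cyclic loess (0.0524), no filter on dim probes (0.0600) or replicate number as a block (0.114). Col15a1 is also made by capillaries, and the endothelial markers Vwf (difference -1.12, adjusted p = 0.0895) and Tek (difference -1.76, adjusted p = 0.0920) had non-overlapping groups on the same arrays, all pharyngeal values below the limb values, without passing. The endothelial adhesion gene Pecam1 differed by -0.45 (adjusted p = 0.694), with overlapping groups. Endothelial markers past the filter had mean levels of 5.61 to 6.37 in pharyngeal and 6.27 to 6.56 in limb pools. Of them 0 of 9 passed (limma), and 3, or 33.3%, had an unadjusted p under 0.05, against 20.3% of all genes. Groups did not overlap for 22.2% of the 9, against 26.7% of all genes. The differences were below 0 for 7 and above 0 for 2, namely Flt1 (0.39) and Esam (0.34). The part of the endothelial markers in the Col15a1 value was not tested. Col18a1, the source of endostatin, read 8.17, 8.43 and 7.89 in pharyngeal pools and 8.19, 8.25 and 7.83 in limb pools, with overlapping groups (difference 0.08, interval -0.45 to 0.61, adjusted p = 0.889).

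All 11 fibrillar genes had a tested probe, and 0 passed in either direction (limma). At an unadjusted p under 0.05 there were 2, or 18.2%, against 20.3% of all genes. The median difference of the fibrillar genes was -0.07, with 7 below and 4 above 0. Col3a1, which forms fine fibrils in muscle matrix, was among the most even members: 10.08, 10.33 and 10.29 in pharyngeal pools against 10.36, 10.26 and 10.29 in limb pools. Its difference of -0.07 had an interval of -0.50 to 0.35. The chains of type I collagen, the bulk protein of tendon and interstitial fibrils, read lower in pharyngeal pools without passing. Col1a1 was 7.57, 8.76 and 8.91 in pharyngeal and 9.98, 8.93 and 8.94 in limb pools, so that pharyngeal pool 1 and limb pool 1 stood at opposite ends and the other 4 pools lay between 8.76 and 8.94 (difference -0.87, SE 0.44, adjusted p = 0.320). Its partner Col1a2 was 9.41, 9.41 and 9.78 against 10.43, 9.78 and 9.74, with limb pool 1 again the highest (difference -0.45, adjusted p = 0.372).

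Type V collagen sets the diameter of fibrils and, when made by satellite cells, acts on the calcitonin receptor Calcr in mouse muscle. Col5a1 read 9.72, 9.66 and 9.35 in pharyngeal and 9.61, 9.46 and 9.28 in limb pools, with overlapping groups (difference 0.13, interval -0.35 to 0.60). Col5a2 read 7.01, 7.57 and 6.79 against 7.73, 8.02 and 7.72, with all pharyngeal values below the limb values (difference -0.70, SE 0.25, adjusted p = 0.187). Col5a3 differed by -0.41 (adjusted p = 0.368). None of these chains passed. The receptor Calcr differed by -2.43 on the same arrays (SE 0.31, adjusted p = 0.00980, limma). It is 1 of the 12 satellite cell markers, whose median difference was -1.97. All 12 had every pharyngeal value below every limb value, against 15.0% of all genes tested.

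The other fibrillar collagens did not pass. Col11a1, which nucleates cartilage fibrils and is also found in tendon, differed by -0.90 (adjusted p = 0.310). Its brightest probe was above background on 2 pharyngeal and 3 limb arrays, and another kept probe on all 6 arrays. Col27a1, a cartilage collagen, read 5.88, 5.25 and 5.62 in pharyngeal pools and 5.18, 4.61 and 5.03 in limb pools, with groups just apart (difference 0.64, SE 0.25, adjusted p = 0.212). Col2a1, the main collagen of cartilage, showed the widest spread of the family: 4.43, 5.33 and 7.19 in pharyngeal pools and 5.93, 4.64 and 5.76 in limb pools, for a difference of 0.21 with an interval of -1.40 to 1.81. The high value belonged to pharyngeal pool 3. In the same order of pools, the cartilage markers read 5.42, 4.24 and 4.55 in pharyngeal pools for Acan, 4.31, 4.77 and 5.08 for Chad, and 6.60, 5.90 and 6.59 for Comp. Also tested were Matn4 (6.99, 7.41 and 6.48) and Sox9 (9.59, 9.78 and 9.46), each lowest in pool 3. In limb pools Chad read 7.15, 6.11 and 6.19 and Comp 10.15, 8.45 and 8.57. Both were called lower in pharyngeal pools (limma, adjusted p = 0.0395 and 0.0278). The part of the cartilage markers in the Col2a1 value was not tested. Col11a2 (-0.07) and Col24a1 (0.04) lay near background.

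All 6 type IV chains had a probe above background on all 6 arrays, and 0 passed (limma; 0 also at an unadjusted p under 0.05). Col4a1 and Col4a2 form the common basement membrane trimer and are transcribed in opposite directions from the shared stretch printed above. Col4a1 read 9.99, 10.35 and 9.94 in pharyngeal pools and 10.25, 10.16 and 10.17 in limb pools. Col4a2 read 8.65, 9.19 and 8.61 against 9.12, 8.76 and 8.86. Both differed by -0.10, with intervals of -0.56 to 0.35 and -0.65 to 0.44, and pharyngeal pool 2 was the highest of its group for each. The chains of specialised basement membranes were Col4a3 (-0.73, SE 0.34, adjusted p = 0.283), Col4a4 (-0.11), Col4a5 (0.33, adjusted p = 0.372) and Col4a6 (0.09). Col4a5 had non-overlapping groups, 7.85 to 7.97 in pharyngeal and 7.37 to 7.68 in limb pools, and its second probe differed by 0.99 (SE 0.23, adjusted p = 0.0704 over all kept probes).

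Col17a1 and Col7a1, which attach stratified epithelia to the tissue beneath, did not pass. Col17a1, a membrane-spanning collagen of the hemidesmosomes that tie basal epithelial cells to their basement membrane, read 7.19, 6.41 and 8.38 in pharyngeal pools and 5.09, 4.90 and 5.37 in limb pools. The groups did not overlap, and pharyngeal pool 3 was the highest. The difference was 2.20 (SE 0.47, interval 1.12 to 3.29, adjusted p = 0.0520, limma), just outside the threshold. It passed without pharyngeal pool 2 (adjusted p = 0.0258, difference 2.64) or pool 3 (adjusted p = 0.0429, difference 1.70), and in 9 of 26 alternatives in all. Leaving out pharyngeal pool 1 gave an adjusted p of 0.0839, and leaving out any 1 limb pool gave 0.164 to 0.200. Both other Col17a1 probes were highest in pharyngeal pool 3 too, with differences of 1.74 and 1.21. Their groups overlapped, and neither passed (adjusted p = 0.351 and 0.430, limma over all kept probes). Each was above background on 3 pharyngeal arrays and 1 limb array. Col7a1, the anchoring fibril collagen of skin and mucosa, read 6.57, 4.96 and 6.65 in pharyngeal pools and 4.48, 5.02 and 4.99 in limb pools. Pharyngeal pools 1 and 3 stood above the limb pools and pool 2 lay among them (difference 1.23, SE 0.46, adjusted p = 0.196). Without pharyngeal pool 2, the pool that lay among the limb pools, Col7a1 passed (difference 1.75, adjusted p = 0.0247). Without any other 1 pool it did not, with differences of 0.95 to 1.33 and adjusted p of 0.313 to 0.419.

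Of 10 tested epithelial markers 6 rose in the pharyngeal pools and 0 fell (limma), against 1.71% of all genes higher and 1.61% lower. The basal keratin Krt14 read 9.69, 9.87 and 11.19 in pharyngeal pools and 4.67, 4.64 and 4.88 in limb pools. Over these markers, the mean log2 level was 6.86 to 8.72 in pharyngeal pools and 4.72 to 4.91 in limb pools, and 9 to 10 of them were above background on a pharyngeal array against 3 to 5 on a limb array. Their part in the Col17a1 and Col7a1 values was not tested. Among the pharyngeal pools, pool 3 was the highest for both Col17a1 and Krt14, whereas the lowest was pool 2 for Col17a1 and Col7a1 and pool 1 for Krt14.

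Beaded filament and network collagens did not pass. Type VI collagen surrounds muscle fibres and is part of the satellite cell niche. Its chain Col6a1 read 9.30, 9.45 and 9.20 in pharyngeal and 9.26, 8.85 and 8.60 in limb pools (difference 0.42, interval -0.12 to 0.95, adjusted p = 0.363). Col6a2, its neighbour on chromosome 10, differed by 0.49 (interval -0.33 to 1.31, adjusted p = 0.492), and pharyngeal pool 2 was the highest for both chains. Col8a1, a short-chain collagen of vessel walls and of the membrane beneath the corneal endothelium, read 9.14, 8.85 and 8.77 against 9.67, 9.30 and 9.22, with pharyngeal values below limb values (difference -0.48, SE 0.22, adjusted p = 0.269). Col8a2 differed by -0.89 (SE 0.47, adjusted p = 0.344) and was above background on 2 pharyngeal and 3 limb arrays. The transmembrane collagen Col23a1 differed by 0.22 (adjusted p = 0.704), near background.

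**Figure D2:**
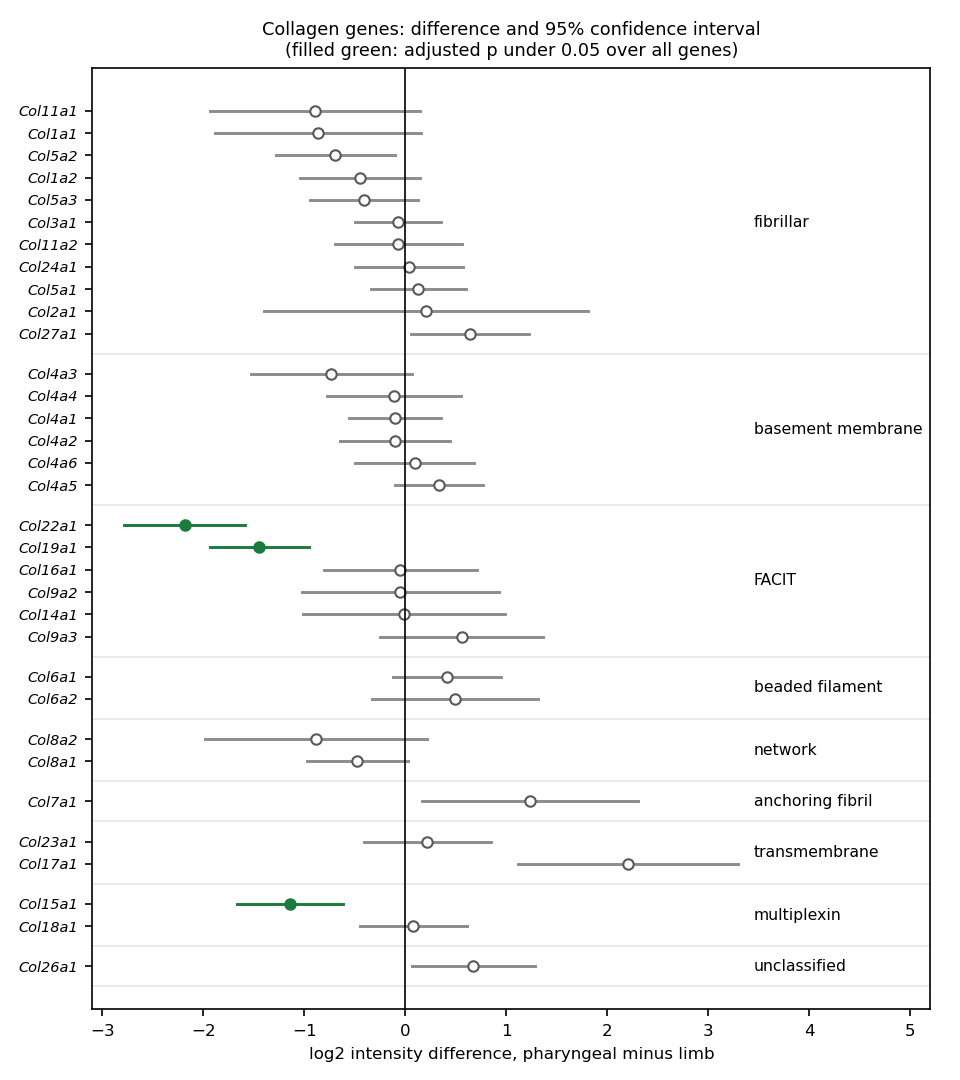
Difference in log2 intensity (x axis, pharyngeal minus limb) of the 33 tested collagen genes, grouped by type, with 95% confidence intervals; filled green points have an adjusted p under 0.05 over all genes. Only Col22a1, Col19a1 and Col15a1 are filled, and the intervals of all 6 type IV chains include 0.

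Groups that did not overlap were found for 6 collagen genes lower and 5 higher in the pharyngeal pools, or 33.3% of the 33, against 15.0% of all genes lower, 11.7% higher and 26.7% in either direction. The lower genes were Col22a1, Col19a1, Col15a1, Col5a2, Col1a1 and Col8a1. The higher genes were Col17a1, Col27a1, Col26a1, Col4a5 and Col9a3. The median level of the tested collagen genes on each array was 6.57, 6.41 and 6.65 in pharyngeal pools 1 to 3 and 6.64, 6.29 and 6.23 in limb pools 1 to 3, so that limb pool 1 stood above the other limb pools. Without limb pool 1 the median difference of the collagen genes was 0.13. The median SD within a group was 0.32 in pharyngeal and 0.31 in limb pools for collagen genes, against 0.36 and 0.22 for all genes tested.

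Of the 8 genes with a probe but none past the filter, 2 were above background on no array, namely Col10a1, the collagen of hypertrophic cartilage, and Col6a4. Col13a1, which stabilises the neuromuscular junction, had a probe above background on pharyngeal arrays 1 and 2 and no limb array, whereas its other probe was above background on 1 limb array only. Col28a1, found around Schwann cells, had a probe above background on 2 pharyngeal arrays and no limb array. Col6a6 was above background on 2 limb arrays and no pharyngeal array, and Col6a5 on 1 limb array. The best probes of Col25a1 and Col9a1 reached 1 pharyngeal array each, and Col9a1 also 1 limb array. No probe used here is named for Col6a3, Col12a1, Col20a1 or Col21a1. These members were not tested. The number of collagen genes with any probe above background was 28, 33 and 31 on the pharyngeal arrays and 34, 32 and 31 on the limb arrays.

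Each gene above was represented by its brightest probe. Tested one by one over 22633 kept probes, 3 of 54 collagen probes were lower and 0 higher, against 2.51% of all kept probes called in either direction, 1.26% lower and 1.25% higher. The 3 were those of Col22a1, Col19a1 and Col15a1, which had no other kept probe. Those of Col22a1 and Col19a1 met the filter through the limb arrays alone. Of 13 collagen genes with several kept probes, 8 had all probes on 1 side of 0 and 5 had probes on both sides. The widest disagreement was in Col26a1, a collagen first found in testis and ovary. Its brightest probe, matched to a cDNA clone, read 7.45, 7.23 and 6.65 in pharyngeal pools and 6.64, 6.43 and 6.23 in limb pools (difference 0.67, adjusted p = 0.222 over all kept probes). Its probe matched to the RefSeq transcript read 4.31, 5.85 and 5.26 against 6.92, 7.06 and 6.42, for a difference of -1.66 (SE 0.40, adjusted p = 0.0783). Neither passed, and the direction of Col26a1 depended on the probe. Col5a2 had 4 probes of the RefSeq transcript with differences of -0.70 to -0.08 and 1 cDNA clone probe at 0.57. Col8a1, Col18a1 and Col4a6 also had probes on both sides, none past the threshold.

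**Figure D3:**
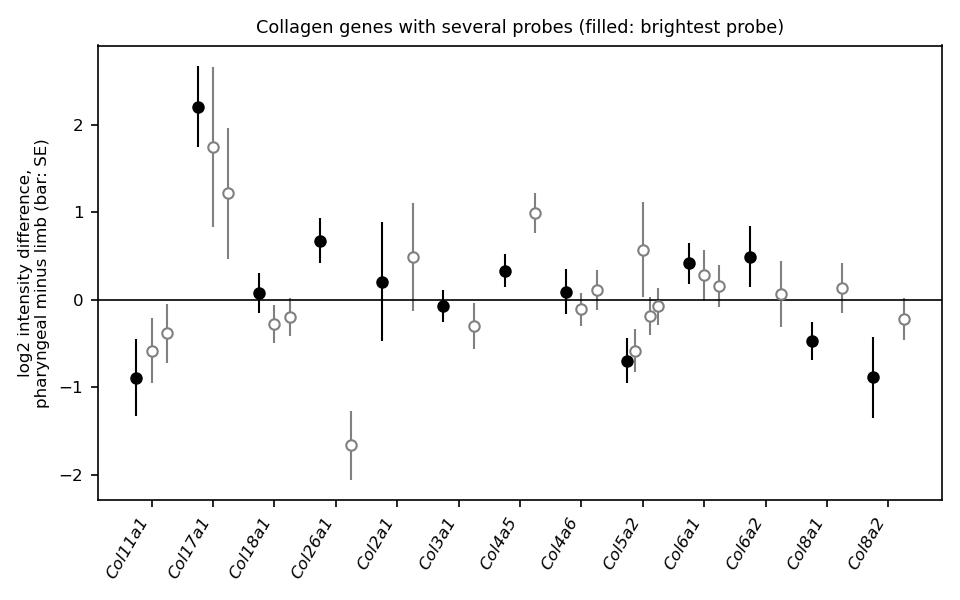
Difference in log2 intensity (y axis, pharyngeal minus limb, bars are SE) for every kept probe of the 13 collagen genes with several; filled points are the brightest probe of each gene. The Col26a1 probes lie at 0.67 and -1.66, on opposite sides of 0. The 3 Col17a1 probes all lie above 1, none past the threshold.

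Genes that make, move and remodel collagen were examined as lists. Of 62 tested genes, 5 fell and 1 rose (limma, adjusted p under 0.05), and all 6 were among the 16 fibril assembly partners. The share called was 9.68% over the 62 and 37.5% over the 16, against 3.32% of all genes. The lists were chosen with earlier results of these data known, so these shares are a description and not a test. The assembly partners bind collagen fibrils and set their size and spacing. Fibromodulin (Fmod), which controls type I fibril growth in tendon, read 5.74, 5.54 and 4.86 in pharyngeal pools and 9.35, 8.44 and 8.32 in limb pools, a difference of -3.32 (SE 0.35, adjusted p = 0.00450). Keratocan (Kera), a related proteoglycan of cornea and tendon, read 4.43, 5.91 and 5.48 against 9.28, 8.70 and 8.36 (difference -3.51, SE 0.42, adjusted p = 0.00737), and was above background on 2 of 3 pharyngeal arrays. Both genes were higher in every limb pool than in any pharyngeal pool.

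The cartilage and tendon protein Comp differed by -2.69 (SE 0.47, adjusted p = 0.0278), the small proteoglycan Ogn by -1.44 (SE 0.22, adjusted p = 0.0179) and Prelp, which links fibrils to basement membranes, by -1.14 (SE 0.20, adjusted p = 0.0269). Thbs1, which activates TGF-beta and binds collagen, read 8.60, 9.04 and 8.82 in pharyngeal pools and 7.55, 7.40 and 7.06 in limb pools, and rose by 1.48 (SE 0.22, adjusted p = 0.0163). Fmod passed in every fit without 1 pool. Kera did not pass without limb pool 1 or 2 (adjusted p = 0.0507 and 0.0506). Leaving out any 1 limb pool ended the calls of Ogn, Prelp and Thbs1 (adjusted p up to 0.110, 0.136 and 0.101), nor Prelp without pharyngeal pool 3 (0.0528), and Comp did not pass without pharyngeal pool 2 or 3 or limb pool 2 or 3 (highest 0.0892). Fmod and Kera are also in the tenocyte list and Comp is also in the cartilage list, so these are not separate evidence. Thbs2, an anti-angiogenic relative of Thbs1, differed by -1.03 (SE 0.26, adjusted p = 0.0790), and the matricellular protein gene Postn by 0.41 (adjusted p = 0.283). The general fibril proteoglycan Dcn differed by -0.45 (adjusted p = 0.294). None of these passed.

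Of the 16 tested genes that modify and fold collagen chains, 0 passed (limma). At an unadjusted p under 0.05 there was 1, or 6.25%, against 20.3% of all genes. This list had a median difference of -0.09 and a range of -0.70 to 0.52. The collagen chaperone Serpinh1 read 10.38, 10.16 and 9.86 in pharyngeal pools and 10.12, 9.96 and 10.04 in limb pools (difference 0.09, interval -0.39 to 0.57). The prolyl 3-hydroxylase family member P3h3 differed by -0.51 (adjusted p = 0.206) and the chaperone Fkbp14 by -0.70 (adjusted p = 0.341). In the secretion list 0 of 6 passed (0 at an unadjusted p under 0.05), with the coat component Sec13 at -0.36 and the matrix transcription factor Creb3l1 at -0.47. In the propeptide processing list 0 of 5 passed (1 at an unadjusted p under 0.05), with the procollagen C-proteinase Bmp1 at -0.74 (adjusted p = 0.148) and Tll2 at -0.05. In the crosslinking list 0 of 3 passed (0 at an unadjusted p under 0.05), with the lysyl oxidases Loxl1 at -0.44 and Loxl4 at -0.15.

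Among 7 collagen receptors 0 passed (limma; 3, or 42.9%, at an unadjusted p under 0.05, against 20.3% of all genes). The receptor kinase Ddr2 differed by 0.83 (SE 0.25, adjusted p = 0.118) and the integrin subunit Itga1 by 0.63 (SE 0.22, adjusted p = 0.176), each with all pharyngeal values above the limb values. Of 9 genes of collagen breakdown and its inhibitors 0 passed (3, or 33.3%, at an unadjusted p under 0.05). The gelatinase Mmp2 read 7.08, 7.71 and 8.21 in pharyngeal pools and 9.07 ± 0.0802 in limb pools (mean and SD, n = 3), with groups apart, and lay just outside the threshold (difference -1.40, SE 0.30, adjusted p = 0.0520). It passed in 10 of 26 alternatives. The inhibitor Timp3 differed by 0.64 (adjusted p = 0.114).

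**Figure D4:**
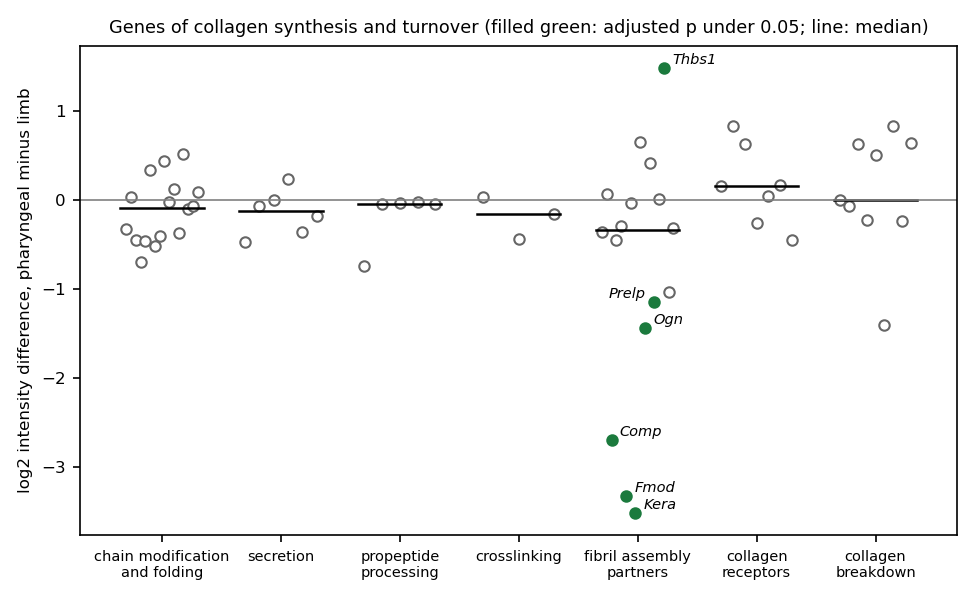
Difference in log2 intensity (y axis, pharyngeal minus limb) of 62 tested genes of collagen synthesis and turnover in 7 lists; filled green points have an adjusted p under 0.05 over all genes and the line is the list's median. The filled points all lie in the fibril assembly list, with Fmod and Kera below -3 and Thbs1 at 1.48.

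Markers of other matrix-producing cells were read on the same arrays. As a background for the counts below, 1.61% of all genes were called lower and 1.71% higher. Of 9 tested fibroblast and fibro-adipogenic progenitor markers 1 fell, Hsd11b1 (difference -3.05, SE 0.33, adjusted p = 0.00506), and 0 rose. At an unadjusted p under 0.05 there were 3, or 33.3%, against 20.3% of all genes. All 3 read lower in pharyngeal pools, with Cxcl14 at -1.25 and Cd34 at -0.56. Of the 9 differences 5 were below 0 and 4 above. Pdgfra read 6.94, 7.64 and 7.88 in pharyngeal and 7.97, 7.37 and 6.38 in limb pools (difference 0.25, adjusted p = 0.799). The mean level of this list was 6.22 to 7.27 in pharyngeal and 6.95 to 7.77 in limb pools. Cartilage markers had means of 6.42 to 6.58 and 7.21 to 8.19, with 2 of 5 lower. Of 10 pericyte and smooth muscle markers 0 passed (limma; 3 at an unadjusted p under 0.05, against 20.3% of all genes). The means of these markers were 8.38 to 8.70 and 8.56 to 8.61. Tagln (difference -1.03, adjusted p = 0.135) and Kcnj8 (-0.88, adjusted p = 0.221) read lower in pharyngeal pools, whereas Rgs5 differed by 0.43 (adjusted p = 0.226). Over the list 6 differences were above 0 and 4 below. Of 5 Schwann cell markers 0 passed (2 at an unadjusted p under 0.05, both lower in pharyngeal pools), with means of 6.32 to 6.74 and 6.29 to 6.70. Those 2 were Mbp (difference -0.68) and S100b (-0.55). The other 3 differences were above 0, with Cdh19 at 0.81 and Sox10 at 0.46. Of 5 myeloid markers 0 passed (1 at an unadjusted p under 0.05), with means of 5.50 to 5.81 and 5.03 to 5.45, and Lyz2 differed by 1.82 (adjusted p = 0.0887). The defining tendon gene Tnmd and the leukocyte gene Ptprc had no probe past the filter. The part of these cells in the collagen values was not tested.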

How the data were processed

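Per the series' design text and the submitters' processing notes, total RNA was amplified in 1 round, hybridized to Illumina arrays and read with GenomeStudio 2011.1. For every array the authors deposited intensity before normalization beside the detection p-value of each probe, and a processed intensity table that served as an alternative. All 6 arrays lay on 1 chip with pharyngeal pools on the first 3 positions, so that position and group cannot be told apart.

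The deposited intensity values were background-corrected by the normexp model on the deposited detection p-values (offset 16), quantile-normalized and put on the log2 scale with limma 3.58.1 in R 4.3.3. The filter asked for a detection p under 0.05 on 3 or more arrays, and the brightest probe past it stood for its gene. Group was the only term in lmFit and eBayes (2-sided, Benjamini-Hochberg over all 11262 genes). The offset draws dim values together and understates their folds. Each group had 3 arrays, which limits the precision, and p-values measure the spread between pools. Between 20919 and 22793 probes were above background per array. The fit was tested on simulated data.

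Gene names came from the platform annotation, through Entrez identifiers of the GRCm38.p6 table (34807 probes matched, 0 symbols changed; 10378 probes are unnamed here and 18 carry several symbols). Collagen genes were named throughout; of the synthesis and turnover lists, members past the threshold and up to 2 others per list by smallest adjusted p; of the marker lists, up to 3 per list by smallest adjusted p and fixed defining markers. Dcn, Serpinh1 and Tnc fall outside that rule and were chosen after their values were seen. Members, lists and naming rule were chosen with earlier results of these data known. Replicate numbers did not pair the arrays, so no block was used.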

Additional observations from a re-analysis of the deposited data

How the results depend on the processing

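Over 26 alternatives, 20 of the 33 collagen genes kept their sign wherever they could be tested, and 13, none past the threshold in any, changed sign in at least 1. Col22a1 passed in all 22 it could be tested in, Col19a1 in 19 of 22, Col15a1 in 12 of 26, Col17a1 in 9 of 26 and Col7a1 in 2 of 25. The alternatives overlap, so these counts are not of separate checks. Each array was left out with the filter redone and again with the probes of the full set retained. The processed table and no background correction gave nearly the same values (Col15a1 at -0.93 in both). The median difference of the collagen genes stayed between -0.19 and 0.13.

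The count of collagen genes higher was 1 in place of 0 with median scaling, with detection on all 6 arrays, with a detection p under 0.01, with a mean-variance trend and with array weights, in each case Col17a1. The count lower was 1 in place of 3 with detection on all 6 arrays, since Col22a1 and Col19a1 then miss the filter. With the trend, 322 genes of all were higher, and 2 collagen synthesis and turnover genes were higher and 8 lower. That list had 2 higher with an offset of 50, with no background correction and with the processed table.

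Same-numbered arrays did not deviate together (correlations across genes -0.01, -0.01 and 0.000225), so the numbers gave no sign of a pairing. With 3 arrays per group, these correlations cannot exclude one. With replicate number as a block, 74 of all genes were higher and 65 lower, 0 collagen genes were higher and 1, Col22a1, was lower, and 0 synthesis and turnover genes were higher and 3 lower.

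Leaving out 1 array gave 31 to 148 genes of all higher and 27 to 212 lower, 0 to 2 collagen genes higher and 0 to 3 lower, and 0 to 1 synthesis and turnover genes higher and 1 to 5 lower. An alternative chosen after seeing the data left out 1 array but retained the probes of the full set. Without limb pool 1 it gave 44 of all genes higher and 56 lower, without limb pool 2 it gave 35 and 39, and without limb pool 3 it gave 33 and 40. Collagen genes lower were then 2, 1 and 1, and 2 were higher without pharyngeal pool 2 and 1 without pharyngeal pool 3. Synthesis and turnover genes higher were 0 without any limb pool, and those lower were 3, 2 and 2.

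Dim probes limit what these arrays show: the brightest probe of 12 of the 33 collagen genes was not above background on every array, and the sizes for Col22a1 and Col19a1 moved with the offset.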
